A study of Mus musculus with 27 samples.

Results

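Ileal organoids treated with 4-OHT, to inactivate floxed Taf4 alleles, and with the Ezh2 inhibitor EPZ6438 (EPZ organoids) were compared with control organoids, gene by gene. A gene entered the comparison when its mean reached 10 normalised reads per kilobase in either group, which held for 14001 of the 23597 genes in the organoid table. The unit is the number of reads on a gene divided by the size factor of the well and by the median transcript length in kilobases, and every level given for a gene below is in this unit. Each gene is described by its log2 ratio, log2((EPZ + 1)/(control + 1)), so a positive value means a higher level in EPZ organoids. The series holds 27 libraries in 9 groups of 3, of which 6 libraries, 3 wells of EPZ organoids and 3 wells of control organoids, carry this comparison.

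Taf4 is a subunit of TFIID, the general transcription factor that binds core promoters and helps to position RNA polymerase II. Ezh2 is the catalytic subunit of Polycomb repressive complex 2 (PRC2), which methylates lysine 27 of histone H3 over developmental genes and keeps them silent, and EPZ6438 (tazemetostat) blocks this activity. In the small intestine, Lgr5-positive stem cells at the crypt base divide continuously, share their niche with Paneth cells, and give rise to absorptive enterocytes and to secretory goblet, enteroendocrine and tuft cells. Organoids grown from crypts keep this organisation in a dish, so the comparison asks which expression state the surviving organoids treated with 4-OHT and EPZ6438 had reached relative to control organoids.

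EPZ organoids carried floxed Taf4 alleles with VilCreERT2, a tamoxifen-inducible Cre recombinase under the villin promoter and thus active in epithelial cells. They were treated with 1 µM 4-OHT for 3 days and with 1 µM EPZ6438. Per the methods, EPZ6438 was started along with 4-OHT and kept in the medium until the experiment ended. The labels of EPZ organoids give 11 days of growth ex vivo, whereas the methods name a later day for RNA extraction. The 4-OHT organoids, per the methods also floxed for Taf4 with VilCreERT2, received 1 µM 4-OHT without the inhibitor (the label of 1 of the 3 libraries leaves out dose and time). Their levels are set beside the others without a test. Control organoids are labelled as ethanol-treated for 3 days, whereas the methods describe floxed organoids without VilCreERT2 that were given 4-OHT, and both control and 4-OHT organoids were harvested at an earlier day than EPZ organoids. The control and 4-OHT cultures were started from crypts of the ileum of mice aged 4 months, the labelled strain of all groups was C57Bl6/129sv, and the 3 libraries of a group were 3 wells, so p-values measure the spread between wells. The 4-OHT treatment of floxed Taf4 alleles, the inhibitor, the age of the culture and, if the methods hold, the genetic origin of the cultures all separate EPZ from control organoids and cannot be told apart.

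Whole reads per well were recovered from the deposited group means for 13483 of the 14001 genes, and these entered the limma test. Depth was 23.84 to 24.47 M reads in EPZ wells, 18.59 to 20.27 M in 4-OHT wells and 13.94 to 15.61 M in control wells. EPZ wells differed more among themselves than control wells, with a median coefficient of variation of 13.2% in EPZ wells and 3.96% in control wells over 8288 genes. EPZ well 3 stood apart, with median absolute log2 differences of 0.27 and 0.35 from EPZ wells 1 and 2, which differed from each other by 0.18. The epithelial genes Epcam and Vil1 had means of 8408 and 21299 in EPZ organoids and of 10076 and 20723 in control organoids, whereas the ileal gene Fabp6 was low in both, with means of 24.6 in EPZ organoids and 3.41 in control organoids. The stromal collagen-binding genes Dcn and Lum and the leukocyte genes Ptprc and Cd8a were under 1 in both groups. Other markers of these cell types were not. Vim had means of 3.09 in EPZ organoids and 74.7 in control organoids, and the leukocyte markers Cd68, Itgam and Lyz2 had 27.5 and 33.0, 37.5 and 12.1, and 13.8 and 2.13.

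On group means, 1734 of the 14001 genes were more than 2-fold higher in EPZ organoids (12.4%) and 1865 were more than 2-fold lower (13.3%), with a median log2 ratio of 0.0047 and a range of -1.89 to 1.75 between the 5th and 95th percentiles. When a limma adjusted p below 0.05 was also required, 1503 of the 13483 tested genes rose (11.1%) and 1592 fell (11.8%). Here and below, a gene that rose, fell or changed passed both conditions. The wells of the 2 groups did not overlap for 1494 of the genes that rose and 1586 of those that fell. Non-overlap was common, since over all 13483 tested genes the EPZ wells lay above all control wells for 4368 and below them for 4474. The change exceeded 4-fold in 513 genes that rose and 532 that fell, and 16-fold in 96 and 97 genes. The split depended on scaling, since scaling all wells to equal totals moved the median log2 ratio by -0.21 and gave 1107 genes higher and 2155 lower, so both counts are relative to the size factors of the authors. Without EPZ well 3, 1522 genes rose and 1765 fell.

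**Figure D1:**
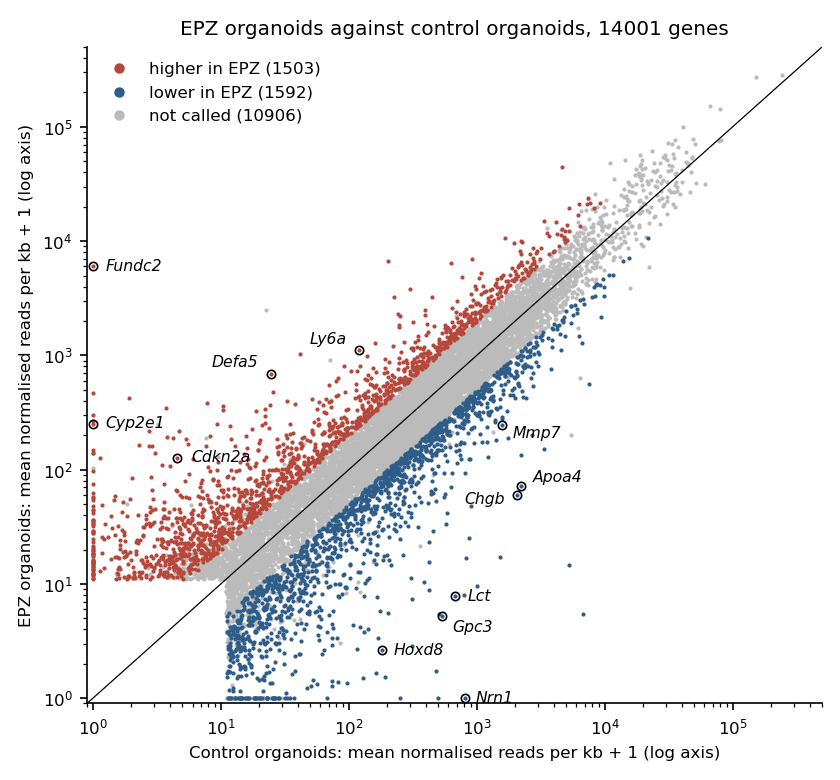
Mean level in EPZ organoids (vertical axis) against control organoids (horizontal axis), both in normalised reads per kilobase plus 1 on log axes, for each of the 14001 genes. Coloured points are the 1503 genes that rose and the 1592 that fell, and the labelled genes lie far from the diagonal, with Fundc2 and Cyp2e1 at 0 reads in control wells and Nrn1 at 0 reads in EPZ wells.

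The log2 ratio moved with the base composition of the transcripts. Its median was 0.36 in the decile of genes with the lowest GC content (18.1 to 41.6%) and -0.78 in the decile with the highest (57.8 to 87.9%), and 202 genes rose and 51 fell in the GC-poor decile, against 64 and 502 in the GC-rich decile. The slope differed between EPZ wells, and the median of the lowest decile exceeded that of the highest by 1.17, 1.76 and 0.43 on the log2 scale in EPZ wells 1, 2 and 3, while the 3 control wells lay between -0.04 and 0.03 and the 4-OHT mean at -0.09. After the median of each of 20 GC bins was taken off, 1482 genes rose and 1134 fell, of which 1224 and 999 were shared with the counts above. The part of GC content in the gene-level results was not tested, and the main gene groups below are given with their counts or median after this step.

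**Figure D2:**
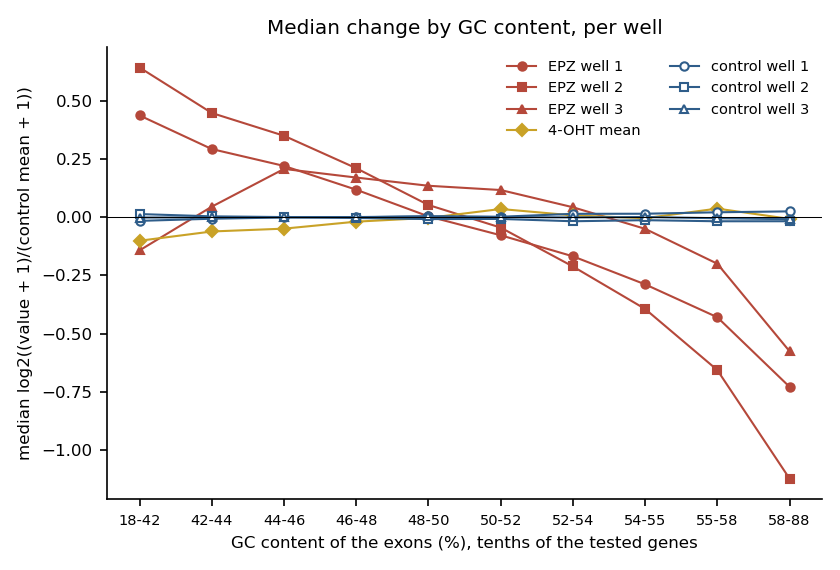
Median log2 deviation in each decile of genes by transcript GC content, for the 3 EPZ wells, the 4-OHT mean and the 3 control wells. EPZ wells 1 and 2 decline from GC-poor to GC-rich genes, most in EPZ well 2 (1.76 between the end deciles), and EPZ well 3 is low at both ends and lowest in the GC-rich decile (0.43 between the ends), while the control wells and the 4-OHT mean stay near 0.

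Across 37 gene lists for cell types and pathways, the lists with the lowest medians were Hox genes (-2.32), developmental regulators often bound by Polycomb (-1.45), goblet cells (-1.39) and Reg lectins with mucosal defence (-1.29). The highest medians belonged to fetal-type and regenerative epithelium (1.04), p53 targets (0.75) and Paneth cells (0.60), against 0.0047 over all genes. A list member that passed the level filter only through the group in which it was high had to differ, so medians and counts over the members that passed describe these members and not the whole list. No tested member of the PRC2 and DNA replication lists changed. Counts of list members that rose or fell, here and below, are to be read against the 11.1% and 11.8% of all tested genes. In bulk RNA, fewer cells of a type and less RNA per cell cannot be told apart, so the cell type lists describe levels and not numbers of cells.

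**Figure D3:**
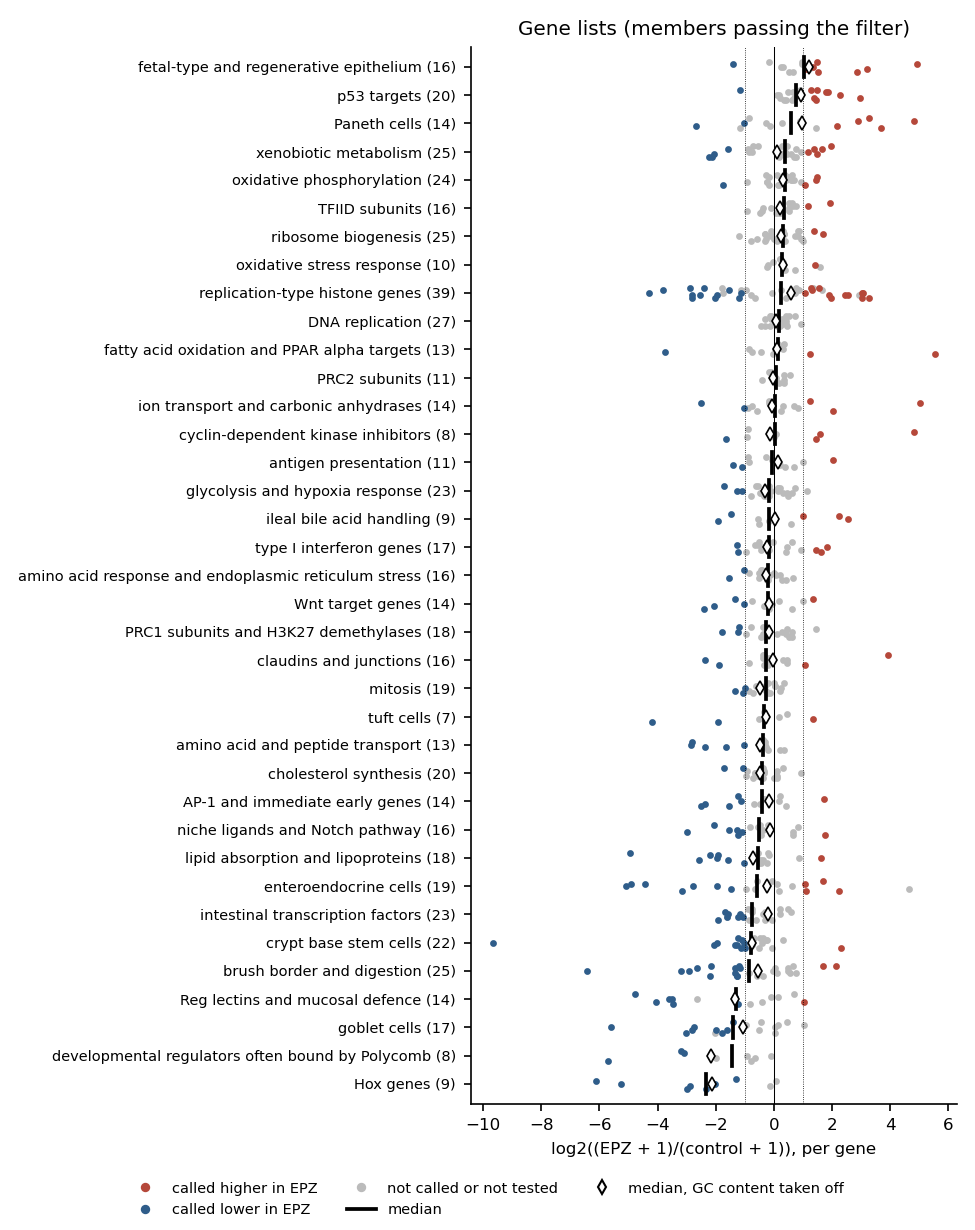
Log2 ratio of EPZ over control organoids for every gene of 37 lists, with the number of members that passed the level filter in brackets. Points are genes, bars the list medians and diamonds the medians after GC content was taken off. Hox genes lie lowest (median -2.32) and fetal-type and regenerative epithelium highest (1.04), and the diamonds of intestinal transcription factors (-0.21) and enteroendocrine cells (-0.24) lie closer to 0 than their bars.

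Among crypt base stem cell genes, Lgr5 and Olfm4 did not pass 2-fold, while the transcription factor Ascl2 and several other members fell. All 22 listed genes passed the level filter, 20 were tested, 1 rose and 10 fell, with a median log2 ratio of -0.80 (-0.74 after GC content was taken off, with 1 higher and 7 lower). Lgr5, the R-spondin receptor that marks these cells, had 1942, 2216 and 1870 in EPZ wells, a mean of 642.7 in 4-OHT organoids and 2635, 2640 and 2539 in control wells. All EPZ wells lay below all control wells, but the log2 ratio of -0.37 did not reach 2-fold (adjusted p = 0.011). Olfm4, a secreted stem cell marker, had 3854, 4830 and 4046 in EPZ wells, a mean of 152.0 in 4-OHT organoids and 5110, 5082 and 4650 in control wells, and the groups overlapped (log2 ratio -0.22, adjusted p = 0.12). After GC content was taken off, the log2 ratios were -0.65 for Lgr5 (adjusted p = 1.3e-04) and -0.50 for Olfm4 (adjusted p = 0.0021), still short of 2-fold. Ascl2, the transcription factor that sets the stem cell programme downstream of Wnt, fell to 130.1, 103.2 and 168.9 in EPZ wells, against 582.9, 550.3 and 567.6 in control wells, with a 4-OHT mean of 115.4 (limma log2 change -2.10 ± 0.17 SE, adjusted p = 1.3e-04). The EPZ level of Ascl2 thus lay near the 4-OHT mean, whereas those of Lgr5 and Olfm4 lay nearer the control wells.

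Further members of the stem cell list fell, while genes of the Wnt target list changed in both directions. Rnf43, a ligase that removes Wnt receptors, had 658.0, 608.9 and 712.6 in EPZ wells and 1655, 1624 and 1701 in control wells, with no overlap between the groups. Axin2, the negative feedback target used as a Wnt readout, had 2906, 2379 and 2800 in EPZ wells and 5643, 5521 and 5284 in control wells, and its call ended once GC content was taken off (log2 ratio -0.67). Sox9, a transcription factor of progenitors and Paneth cells, had 574.5, 692.7 and 647.5 in EPZ wells and 1509, 1449 and 1534 in control wells. Nrn1, which encodes the membrane protein neuritin, had no read in the 3 EPZ wells and 876.8, 747.5 and 808.1 in control wells, at least 1196-fold lower in EPZ organoids against a floor of 3 reads over the group. Tnfrsf19 (Troy), a Wnt target of stem cells, was the single member that rose, with 328.4, 318.3 and 303.5 in EPZ wells and 56.5, 57.7 and 76.5 in control wells (log2 ratio 2.30, adjusted p = 4.6e-05), while its 4-OHT mean was 0.22. Of the 14 tested of 17 listed Wnt target genes, 4 fell (28.6%) and 1 rose (7.14%), against 11.8% and 11.1% of all tested genes. The gene that rose was Lef1, a DNA-binding partner of beta-catenin, with means of 15.4 in EPZ organoids and 5.52 in control organoids. After GC content was taken off 3 fell and 4 rose.

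Counts of cell cycle genes stand against the 11.1% of all tested genes that rose and the 11.8% that fell. None of the 27 tested DNA replication genes changed at 2-fold, and their median log2 ratio of 0.19 turned to -0.02 with equal totals. Of 19 mitosis genes 3 fell (15.8%) and none rose. They were Plk1, a kinase of the spindle (means 496.5 in EPZ organoids and 1261 in control organoids), the transcription factor Foxm1 (674.1 and 1357) and Mki67, which encodes the proliferation antigen Ki67. Mki67 had 903.4, 1087 and 417.0 in EPZ wells, a mean of 311.7 in 4-OHT organoids and 1619, 1743 and 1638 in control wells, and without EPZ well 3 its log2 ratio was -0.74, short of 2-fold. The calls of Plk1 (-0.99) and Foxm1 (-0.81) ended when GC content was taken off.

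Paneth cell genes changed in both directions, with 4 alpha-defensins and Ang4 higher and Mmp7 and Defa26 lower. Of 19 listed genes 14 passed the filter, 11 were tested, 5 rose and 2 fell, with a median of 0.60 (0.97 after GC content was taken off). Ang4, an antimicrobial ribonuclease, had 13559, 16157 and 15195 in EPZ wells, a mean of 536.3 in 4-OHT organoids and 3255, 3201 and 3542 in control wells (log2 ratio 2.17, adjusted p = 2.0e-05). Defa5 had 794.4, 638.6 and 631.0 in EPZ wells and 15.2, 29.0 and 27.1 in control wells, a log2 ratio of 4.80, and Defa22, Defa21 and Defa20 rose as well with log2 ratios of 3.67, 3.26 and 2.88. In these 4 defensins the EPZ wells lay above the control wells, while the 4-OHT means were between 13.6 and 154.7. Alpha-defensin genes are near-identical copies, so how uniquely aligned reads divide among them is uncertain. Mmp7, the matrix metalloproteinase that cleaves pro-alpha-defensins in mouse Paneth cells, fell to 239.5, 278.1 and 214.3 in EPZ wells, against 1495, 1513 and 1740 in control wells, with a 4-OHT mean of 27.9 (log2 ratio -2.69, adjusted p = 1.9e-05). Lyz1, the Paneth cell lysozyme, could not be resolved by well and had means of 12434 in EPZ organoids, 9332 in 4-OHT organoids and 4524 in control organoids. Defa26 fell (means 50.6 in EPZ organoids and 104.2 in control organoids), a call that ended without EPZ well 3. Other alpha-defensins had no call: Defa24, the most abundant of the list, had means of 32882 in EPZ organoids and 36359 in control organoids and was not resolved by well, Defa17 had 1804 and 2186 (adjusted p = 0.26), and AY761184 had 7.62 and 18.2 (adjusted p = 0.14).

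Goblet cell genes were mostly lower, with exceptions among the most abundant. All 17 listed genes passed the filter, 15 were tested, 8 fell and none rose, with a median of -1.39 (-1.05 after GC content was taken off, with 1 higher and 8 lower). Muc2, the gel-forming mucin of intestinal mucus, had 288.0, 368.0 and 393.5 in EPZ wells, a mean of 2308 in 4-OHT organoids and 1185, 1280 and 1136 in control wells (log2 ratio -1.78, adjusted p = 8.2e-05). Spdef, a transcription factor required for goblet and Paneth cell maturation, had 62.1, 46.7 and 81.9 in EPZ wells and 426.2, 451.6 and 432.6 in control wells. Atoh1, which commits progenitors to the secretory lineages, had 35.2, 37.1 and 47.4 in EPZ wells and 159.9, 156.6 and 141.3 in control wells. Ccl9, a chemokine, had 7.62, 22.1 and 18.1 in EPZ wells and 795.7, 824.5 and 833.9 in control wells, the lowest log2 ratio of the list at -5.60. The groups did not overlap for any of these genes, which was common over all tested genes. The 4-OHT means of Spdef (391.5) and Atoh1 (159.0) lay near the control wells. Among abundant members, Spink4 had means of 38736 in EPZ organoids and 35515 in control organoids, Guca2a 9490 and 9319, and Agr2 5365 and 5238, all without a call. Tff3 (45733 and 33485) and Fcgbp (3887 and 15653) were not resolved by well. Klk1 was higher at low levels (39.4 and 18.8) without a call.

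Enteroendocrine genes changed in both directions, 4 up and 7 down among 18 tested genes of 26 listed, of which 19 passed the filter, with a median of -0.58 that became -0.24 after GC content was taken off. Chgb, a protein of secretory granules, had 38.0, 70.6 and 69.9 in EPZ wells, a mean of 768.4 in 4-OHT organoids and 2107, 2079 and 2013 in control wells, a log2 ratio of -5.09 (adjusted p = 1.9e-05). Tph1, the enzyme that starts serotonin synthesis in enterochromaffin cells, had 3.57, 6.77 and 9.79 in EPZ wells and 172.9, 157.5 and 166.6 in control wells, and Fev, a transcription factor of the same cells, had means of 4.82 in EPZ organoids and 175.6 in control organoids. Among hormone genes, Nts (neurotensin) and Ghrl (ghrelin) rose, while Cck (cholecystokinin) and Tac1, the substance P precursor, fell with log2 ratios of -3.17 and -2.78, and Sct (secretin) had a log2 ratio of -0.64 that did not pass 2-fold. Nts had 150.9, 158.0 and 112.8 in EPZ wells and 30.0, 29.9 and 28.1 in control wells, and Ghrl had 533.5, 614.1 and 805.2 in EPZ wells and 235.1, 221.0 and 151.4 in control wells. Neurog3, which specifies all endocrine cells, had means of 673.9 in EPZ organoids and 318.9 in control organoids (log2 ratio 1.08). Of 16 listed tuft cell genes 7 passed the filter and 6 were tested, and of these Rgs13 had no read in EPZ wells and 19.5, 15.1 and 16.7 in control wells (at least 33.3-fold lower in EPZ organoids), Avil fell and Hpgds, a prostaglandin D synthase, rose (log2 ratios -1.92 and 1.35). Dclk1 did not reach the level filter, with means of 0.084 in EPZ organoids and 7.95 in control organoids.

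**Figure D4:**
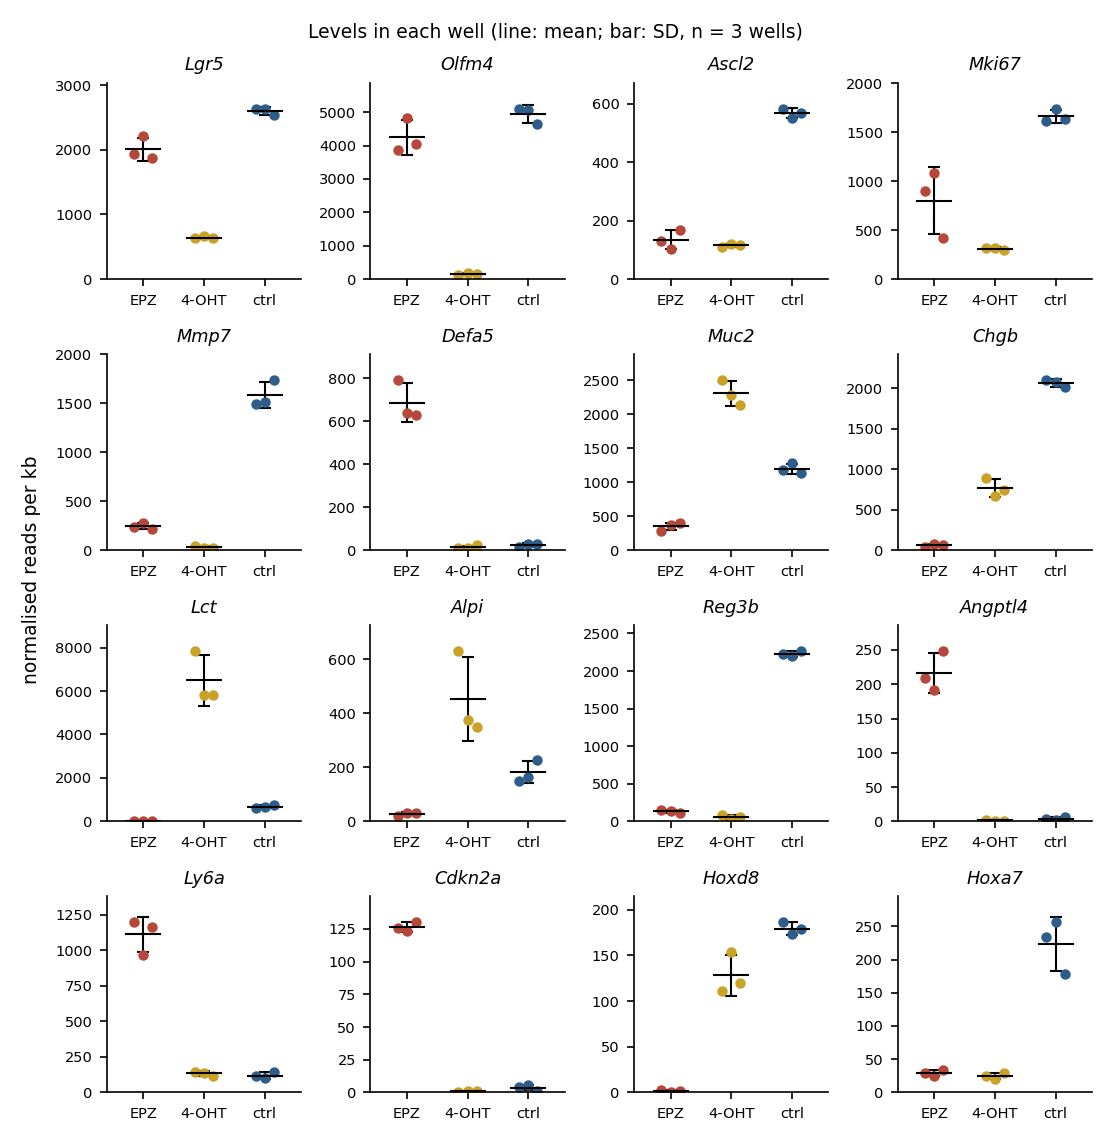
Levels of 16 genes in normalised reads per kilobase in the 3 wells of EPZ, 4-OHT and control organoids, with a line at the mean and a bar of 1 SD. Lgr5 and Olfm4 in EPZ organoids lie closer to control than to 4-OHT organoids, Defa5 is higher (EPZ wells 631.0 to 794.4, control wells 15.2 to 29.0), and Lct, Chgb, Reg3b and Hoxd8 are near the lower edge in EPZ organoids.

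The absorptive programme was lower for many enzymes and transporters of the brush border, with exceptions. Of 25 listed genes, which all passed the filter, 23 were tested, 12 fell and 2 rose, with a median of -0.87 (-0.54 after GC content was taken off, with 2 higher and 9 lower). Lct, the lactase of milk sugar digestion, fell to 4.24, 10.1 and 6.12 in EPZ wells, against 611.3, 655.9 and 750.9 in control wells, while the 4-OHT mean was 6486 (log2 ratio -6.43, adjusted p = 1.5e-05). Alpi, intestinal alkaline phosphatase, had 21.1, 32.5 and 31.5 in EPZ wells and 151.2, 165.4 and 228.2 in control wells, again with a 4-OHT mean above both at 452.7. Cubn, the receptor for the intrinsic factor and vitamin B12 complex, had 26.0, 37.0 and 30.8 in EPZ wells and 242.9, 281.2 and 351.0 in control wells. The fructose transporter Slc2a5 and the basolateral glucose transporter Slc2a2 fell with log2 ratios of -2.21 and -2.15. Mep1b, the meprin beta protease, went against the list, with 447.0, 490.6 and 367.4 in EPZ wells and 117.3, 126.8 and 156.5 in control wells (log2 ratio 1.70). Sis, the sucrase-isomaltase, was not resolved by well. Of 13 amino acid and peptide transporters 5 fell and none rose, led by Slc6a19, the main neutral amino acid carrier of the brush border (means 60.4 in EPZ organoids, 3149 in 4-OHT organoids and 438.2 in control organoids).

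Genes of lipid absorption were lower, while genes of ileal bile acid handling were divided. Of 19 listed lipid genes 18 passed the filter and 17 were tested, 7 fell and 1 rose, with a median of -0.53 (-0.73 after GC content was taken off, with 6 lower). Apoa4, an apolipoprotein of chylomicrons, had 53.9, 59.3 and 99.0 in EPZ wells, a mean of 15796 in 4-OHT organoids and 2037, 1863 and 2711 in control wells (log2 ratio -4.94, adjusted p = 2.6e-05). Apoa1 had 814.2, 785.5 and 830.6 in EPZ wells and 2489, 2923 and 3691 in control wells, and Creb3l3, a transcription factor of apolipoprotein genes, fell with a log2 ratio of -2.20. The 2 small fatty acid binding proteins of enterocytes diverged, with Fabp1 at 124.8, 370.7 and 225.4 in EPZ wells and 683.9, 578.1 and 910.6 in control wells, but Fabp2 at 3337, 4045 and 3503 in EPZ wells and 1025, 1243 and 1258 in control wells. Fabp6, the bile acid binding protein of the ileum, rose, at low levels in both groups, with 23.7, 30.0 and 20.0 in EPZ wells and 2.38, 2.53 and 5.31 in control wells. Fgf15, the hormone that ileal enterocytes release in response to bile acids, had 167.6, 143.3 and 127.6 in EPZ wells and 29.0, 25.4 and 36.6 in control wells (log2 ratio 2.23). Osta, a subunit of the basolateral bile acid exporter, and Nr0b2, the nuclear receptor SHP, fell (log2 ratios -1.92 and -1.48). Slc10a2, the apical bile acid transporter, rose by a log2 ratio of 1.01, a call that ended when GC content was taken off (0.71).

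In fatty acid and xenobiotic metabolism, genes changed in both directions. Angptl4, a target of PPAR alpha and secreted inhibitor of lipoprotein lipase, had 208.7, 191.4 and 248.8 in EPZ wells and 2.81, 1.99 and 6.27 in control wells, with a 4-OHT mean of 1.36 (log2 ratio 5.53, adjusted p = 4.4e-05). Of 22 tested genes of xenobiotic metabolism 5 rose (22.7%) and 4 fell (18.2%), against 11.1% and 11.8% of all tested genes. After GC content was taken off 4 rose and 5 fell. The glutathione transferase Gsta1 rose (means 3828 in EPZ organoids and 984.4 in control organoids), and the cytochrome Cyp2b10 fell, with 281.7, 311.7 and 301.2 in EPZ wells and 1129, 1256 and 1318 in control wells.

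Genes of fetal-type and regenerative epithelium, a state that the intestinal lining enters after injury, were mostly higher. Of 21 listed genes 16 passed the filter, 13 were tested, 7 rose and 1 fell, and the median was 1.04 (1.19 after GC content was taken off). Ly6a (Sca-1), its most used surface marker, had 1200, 968.1 and 1167 in EPZ wells, a mean of 133.6 in 4-OHT organoids and 112.7, 100.5 and 142.8 in control wells (log2 ratio 3.22, adjusted p = 2.2e-05). Gja1, which encodes connexin 43, had 54.4, 55.4 and 43.1 in EPZ wells and 1.03, 0.55 and 0.58 in control wells, and Anxa1, an annexin, had 7137, 6394 and 5091 in EPZ wells and 2080, 2041 and 2349 in control wells. Clu, the secreted chaperone clusterin that marks revival stem cells, was spread widely, with 1480, 513.4 and 903.3 in EPZ wells and 424.2, 413.6 and 508.0 in control wells, and its call (adjusted p = 0.047) ended without EPZ well 3. Spink3, a trypsin inhibitor, went the other way, with 368.3, 434.8 and 365.4 in EPZ wells and 934.0, 1013 and 1178 in control wells. The 4-OHT means of Clu (4236) and Spink3 (7818) exceeded those of both other groups.

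Inhibitors of cyclin-dependent kinases differed by gene, with 3 higher and 1 lower of 8. Cdkn2a, which encodes p16Ink4a and p19Arf and is a textbook target of PRC2, had 125.4, 123.0 and 130.3 in EPZ wells, a mean of 0.78 in 4-OHT organoids and 3.82, 5.41 and 1.42 in control wells. The 3 EPZ wells lay close together and above all control wells (limma log2 change 4.92 ± 0.36 SE, adjusted p = 8.4e-05). Cdkn1a (p21) had 7668, 7844 and 10478 in EPZ wells, a mean of 7374 in 4-OHT organoids and 3314, 2645 and 3543 in control wells (log2 ratio 1.45). Cdkn2c (p18Ink4c) fell to 289.5, 317.6 and 321.2 in EPZ wells, against 968.8, 1002 and 909.4 in control wells. Cdkn1a also belongs to the p53 targets, of which 8 of 20 rose and 1 fell, with a median of 0.75 (10 higher and none lower after GC content was taken off). Eda2r, a death receptor of the TNF receptor family, had 710.8, 811.5 and 381.0 in EPZ wells and 77.5, 84.4 and 83.0 in control wells, and Fas, another death receptor, had 274.1, 311.9 and 241.1 in EPZ wells and 49.1, 61.7 and 57.3 in control wells. Bax and Pmaip1, which promote mitochondrial apoptosis, rose with log2 ratios of 1.37 and 1.29, while Gdf15, a secreted stress cytokine, fell (-1.17).

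The subunits of PRC2 did not change past 2-fold. Ezh2 had 1598, 1681 and 1503 in EPZ wells, a mean of 671.4 in 4-OHT organoids and 1259, 1251 and 1238 in control wells (log2 ratio 0.35, adjusted p = 0.0081), and Suz12 had means of 4839 in EPZ organoids and 4287 in control organoids (adjusted p = 0.68). EPZ6438 acts on the enzyme, so transcript levels carry no measure of the block itself. Of 15 tested genes for PRC1 subunits and demethylases of lysine 27, 3 fell (20%, against 11.8% of all tested genes). Among these was Kdm6b, a demethylase, with 148.6, 121.0 and 171.1 in EPZ wells and 525.8, 475.7 and 514.0 in control wells. After GC content was taken off 1 of the 15 fell.

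Hox genes, the classical targets of Polycomb repression, were mostly lower in EPZ organoids among the members that passed the level filter. Of 26 listed genes 9 passed and were tested, 7 fell (77.8%, against 11.8% of all tested genes) and none rose, and the median was -2.32 (-2.12 after GC content was taken off). Hoxd8, Hoxd3 and Hoxa10 passed only through control organoids and so had to be lower, and the count does not describe the whole family. Hoxd8 and Hoxd3, 2 neighbours of the HoxD cluster on chromosome 2, fell furthest. Their promoters, 250 bases before to 50 bases after the RefSeq start in GRCm38.p6 on the plus strand, are shown because both genes were close to silent in EPZ organoids, with CG dinucleotides, the sites of DNA methylation, in capitals.
Hoxd8 (chr2:74704365-74704664): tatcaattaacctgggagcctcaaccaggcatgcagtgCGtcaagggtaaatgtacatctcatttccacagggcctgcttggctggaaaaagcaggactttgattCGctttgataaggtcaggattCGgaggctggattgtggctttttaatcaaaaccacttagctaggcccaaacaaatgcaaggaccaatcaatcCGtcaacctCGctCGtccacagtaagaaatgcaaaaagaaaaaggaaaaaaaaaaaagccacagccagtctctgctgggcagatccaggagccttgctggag
Hoxd3 (chr2:74711743-74712042): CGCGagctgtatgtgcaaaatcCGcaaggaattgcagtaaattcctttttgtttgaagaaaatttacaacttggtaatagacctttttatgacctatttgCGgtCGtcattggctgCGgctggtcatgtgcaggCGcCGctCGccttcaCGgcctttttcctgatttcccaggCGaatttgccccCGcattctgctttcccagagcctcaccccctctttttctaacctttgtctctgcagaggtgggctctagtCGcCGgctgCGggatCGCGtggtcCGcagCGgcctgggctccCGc
The Hoxd8 window holds 6 CG dinucleotides and the Hoxd3 window 20, counts that 56.4% and 26.8% of all promoters in the reference table reach or exceed.

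Hoxd8 had 2.59, 0.45 and 1.82 in EPZ wells, a mean of 128.2 in 4-OHT organoids and 186.6, 172.9 and 178.7 in control wells (limma log2 change -6.20 ± 0.35 SE, adjusted p = 3.7e-05). Hoxd3 had 0, 0.35 and 0.35 in EPZ wells, from 2 reads over the 3 wells, a mean of 45.8 in 4-OHT organoids and 39.8, 44.4 and 53.3 in control wells, which is 200-fold lower with a 95% counting interval of 54.7 to 1657. The 4-OHT means of both HoxD genes lay nearer to the control wells than to the EPZ wells. In the HoxA cluster, Hoxa7 had 29.1, 24.7 and 33.7 in EPZ wells, a mean of 25.2 in 4-OHT organoids and 234.3, 256.6 and 178.1 in control wells, and here the 4-OHT mean lay within the range of the EPZ wells. Hoxa10 had 12.5, 4.06 and 6.602 in EPZ wells and 38.4, 40.03 and 49.3 in control wells, with a 4-OHT mean of 0.22. The HoxA genes lay in a stretch of chromosome 6 (52106901 to 52296939 in mm9) in which 7 of 12 genes that passed the filter were more than 2-fold lower. Over all genes, 13.3% were more than 2-fold lower. Of 36 listed developmental regulators often bound by Polycomb 8 passed the filter and 5 were tested. Of these 3 fell (60%, against 11.8% of all tested genes), namely the homeobox genes En2, Pitx1 and Nkx6-1. En2 and Nkx6-1 passed the filter only through control organoids and so had to be lower. En2 had 0.46, 0.48 and 0.32 in EPZ wells and 75.9, 72.7 and 71.5 in control wells, and Pitx1 had 69.1, 38.7 and 73.9 in EPZ wells and 613.1, 567.8 and 523.1 in control wells. The groups did not overlap for any of these Hox and homeobox genes, which was common over all tested genes.

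Of 16 tested entries for TFIID subunits, 2 of them for Taf9, 2 rose (12.5%, against 11.1% of all tested genes) and none fell, with a median of 0.36. In contrast, 1 fell after GC content was taken off and 1 without EPZ well 3. Taf4a, the gene name used in the table for Taf4, had 193.0, 196.0 and 215.1 in EPZ wells, a mean of 286.3 in 4-OHT organoids and 261.7, 274.4 and 254.9 in control wells (log2 ratio -0.39, adjusted p = 0.010, and 0.23 after GC content was taken off). A total over the gene cannot show the loss of single exons, so this level does not check the deletion. Taf4b, the paralogue of Taf4, had 115.6, 112.1 and 74.0 in EPZ wells and 55.8, 57.8 and 62.9 in control wells, a log2 ratio of 0.76. Taf13 and Taf12, both histone-fold subunits, rose with log2 ratios of 1.92 and 1.18, and Taf13 had 1565, 1709 and 1274 in EPZ wells and 376.5, 400.2 and 422.6 in control wells.

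Transcription factors of intestinal identity were lower or did not pass. Of 24 listed genes 23 passed the filter and 21 were tested, 7 fell and none rose, with a median of -0.75 that became -0.21 (4 lower) once GC content was taken off. Cdx2, the master regulator of intestinal fate, had means of 2079 in EPZ organoids and 2493 in control organoids and did not pass. Its relative Cdx1 fell, with 1253, 1132 and 1717 in EPZ wells and 3346, 3246 and 3168 in control wells, as did Klf5, a factor of crypt progenitors, with 655.5, 693.9 and 687.5 in EPZ wells and 2118, 2068 and 2056 in control wells, and both calls ended when GC content was taken off (-0.21 and -0.58). Gata5 had 128.1, 109.5 and 114.1 in EPZ wells and 404.2, 383.9 and 338.2 in control wells. Among 16 tested of 22 listed genes of the niche and Notch pathway 6 fell and 1 rose, against 3 lower and 3 higher after GC content was taken off. The receptor Notch1 had 1234, 775.4 and 1313 in EPZ wells, a mean of 1959 in 4-OHT organoids and 4480, 4702 and 4560 in control wells (log2 ratio -2.05), the ligand Dll1 fell by a call that ended after GC content was taken off (-0.87), and the ligand Wnt5a rose (means 44.7 in EPZ organoids and 12.6 in control organoids).

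Reg lectin genes such as Reg3b and Reg1 fell, and AP-1 and immediate early genes changed in both directions. Of 22 listed Reg lectin and defence genes 14 passed the filter and 13 were tested, 7 fell and 1 rose, with a median of -1.29 (-1.33 after GC content was taken off). Reg3b, a bactericidal lectin, had 154.9, 135.3 and 113.5 in EPZ wells, a mean of 58.9 in 4-OHT organoids and 2227, 2195 and 2269 in control wells (log2 ratio -4.04, adjusted p = 5.2e-06). Reg1 had 4.90, 11.4 and 14.5 in EPZ wells and 303.6, 327.4 and 287.9 in control wells, so that in the Reg cluster of chromosome 6 (78320879 to 78418868 in mm9) all 4 genes that passed the filter, Reg3b, Reg3a, Reg1 and Reg3g, were more than 2-fold lower. Reg3g was not resolved by well. Of 13 tested of 16 listed AP-1 and immediate early genes 5 fell (3 after GC content was taken off) and 1, Dusp6, a phosphatase of ERK kinases, rose (log2 ratio 1.74), while Fos (0.41) and Dusp5 (0.19) did not pass 2-fold. Among the members that fell, Junb, an AP-1 subunit, had 198.9, 95.8 and 210.9 in EPZ wells and 1016, 844.3 and 990.9 in control wells. Of 16 tested of 22 listed interferon genes 3 rose (18.8%) and 2 fell (12.5%), against 11.1% and 11.8% of all tested genes. The largest rise was that of Irf7, the regulator of the type I response, with 1071, 1023 and 1243 in EPZ wells and 336.9, 258.9 and 353.3 in control wells.

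Housekeeping pathways had shares of changed genes that are to be read against the 11.1% of all tested genes that rose and the 11.8% that fell. Of 22 tested oxidative phosphorylation genes 3 rose (13.6%) and 1 fell, of 22 ribosome biogenesis genes 2 rose (9.09%) and none fell, of 16 glycolysis and hypoxia genes 3 fell (18.8%), and of 19 cholesterol synthesis genes 2 fell (10.5%). The nuclear gene Cox5a, a subunit of cytochrome oxidase, fell (log2 ratio -1.74) while Cox7a2 and Cox6c rose (1.48 and 1.45). The mitochondrial ribosomal RNA mt-Rnr2 had 946.0, 1426 and 708.5 in EPZ wells, a mean of 80.7 in 4-OHT organoids and 40.3, 41.3 and 39.4 in control wells. Of the 18 mitochondrial genes that passed the filter, 10 were more than 2-fold higher, against 12.4% of all genes. Some of these rest on few reads. Over the 3 wells of a group, mt-Co2 had 108 reads in EPZ and 3 in control organoids, and mt-Atp8 had 21 and 0. Replication-type histone genes, whose transcripts mostly lack a poly(A) tail, divided evenly, with 12 higher and 12 lower of 38 tested and 62 listed (15 higher and 8 lower after GC content was taken off). Hist1h1c, a linker histone, had 1116, 984.3 and 1494 in EPZ wells and 224.2, 209.6 and 227.4 in control wells, whereas the highest control mean among the members that fell was 41.4, in Hist1h4k.

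The gene with the highest log2 ratio of all was Fundc2, whose protein belongs to the FUN14 family of the outer mitochondrial membrane, and it lay in a stretch of chromosome X (72212182 to 73120521 in mm9) in which 8 of 13 genes that passed the filter were more than 2-fold higher, 7 of them by the call. Over all genes, 12.4% were more than 2-fold higher. The promoter windows of Fundc2 and its neighbour Brcc3 (RefSeq, GRCm38.p6, plus strand, CG in capitals) are shown because both genes had no read in control wells.
Fundc2 (chrX:75382149-75382448): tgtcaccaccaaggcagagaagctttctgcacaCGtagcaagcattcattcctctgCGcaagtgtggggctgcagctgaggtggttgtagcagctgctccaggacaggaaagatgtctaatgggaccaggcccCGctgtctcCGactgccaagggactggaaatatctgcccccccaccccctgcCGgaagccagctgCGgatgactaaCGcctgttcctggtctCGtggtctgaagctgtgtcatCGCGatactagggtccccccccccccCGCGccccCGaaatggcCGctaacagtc
Brcc3 (chrX:75416378-75416677): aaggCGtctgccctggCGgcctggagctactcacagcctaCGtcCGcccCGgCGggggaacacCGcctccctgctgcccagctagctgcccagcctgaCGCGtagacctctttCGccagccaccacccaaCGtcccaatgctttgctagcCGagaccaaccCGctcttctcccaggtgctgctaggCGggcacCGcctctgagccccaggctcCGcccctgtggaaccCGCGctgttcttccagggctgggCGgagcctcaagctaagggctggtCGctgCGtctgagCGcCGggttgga
They hold 14 and 23 CG dinucleotides, counts reached by 36.9% and 21.6% of all promoters in the table.

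Fundc2 (72627738 to 72641798 in mm9) had 5562, 6068 and 6468 in EPZ wells, a mean of 1205 in 4-OHT organoids and 0 in all 3 control wells, from 9308 reads over the EPZ wells and none over the control wells, at least 2020-fold higher (adjusted p = 2.1e-08). Brcc3, a deubiquitinase of the DNA damage response, had 493.4, 536.9 and 365.9 in EPZ wells, a mean of 234.0 in 4-OHT organoids and no read in control wells. F8, the coagulation factor, and Mtcp1 followed the same pattern, at least 50.6-fold and 59.7-fold higher, with 4-OHT means of 10.4 and 134.8. Reads on these 4 genes were thus present in EPZ and 4-OHT organoids and absent from the control wells. Also in the stretch, Vbp1, a prefoldin subunit, had 1905, 2221 and 1822 in EPZ wells and 944.5, 906.2 and 845.1 in control wells (0.77 after GC content was taken off, when its call ended), and Pls3, an actin-bundling plastin, had 161.9, 208.6 and 124.1 in EPZ wells and 0.74, 2.74 and 0.41 in control wells. Dkc1, the pseudouridine synthase dyskerin, did not pass 2-fold (log2 ratio 0.82).

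**Figure D5:**
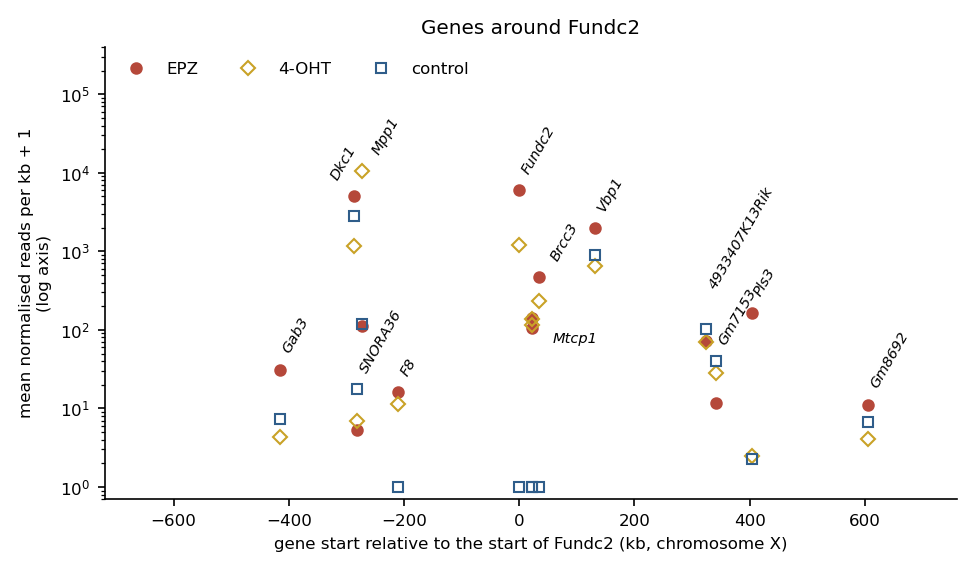
Mean level (normalised reads per kilobase plus 1, log axis) of the genes around Fundc2 on chromosome X against their distance from the Fundc2 start, for EPZ, 4-OHT and control organoids. Fundc2, Brcc3, F8 and Mtcp1 are at 0 in control organoids and above 0 in EPZ and 4-OHT organoids, with Fundc2 at 5562 to 6468 in the EPZ wells.

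Other genes were also without a read in 1 group. In all, 61 genes that rose had no read in control wells and 47 that fell had none in EPZ wells. Among those that rose, Gimap9, a GTPase of the immunity-associated family, had 254.8, 355.4 and 295.0 in EPZ wells and a 4-OHT mean of 34.9 (at least 256-fold higher), and Fam111a, a protease known from human cells to restrict viral replication, had 281.7, 324.5 and 186.6 in EPZ wells and a 4-OHT mean of 63.6. Cyp2e1, a cytochrome P450 that oxidises ethanol, had 253.2, 234.1 and 270.0 in EPZ wells, a 4-OHT mean of 0.69 and no read in control wells (at least 212-fold higher). Cyp2e1 was thus high in EPZ organoids and low in both other groups, unlike Gimap9 and Fam111a, which had reads in 4-OHT organoids as well. Nefm, a neurofilament, rose to 408.6, 477.4 and 391.6 in EPZ wells, against 0.97, 1.04 and 0.73 in control wells (log2 ratio 7.80), and the cytosolic carbonic anhydrase Car2 had 25.0, 35.7 and 33.5 in EPZ wells and no read in 4-OHT or control organoids. Gpc3, a cell surface proteoglycan, fell to 5.18, 3.90 and 3.51 in EPZ wells, against 550.1, 543.4 and 504.2 in control wells, with a 4-OHT mean of 140.9 (log2 ratio -6.68, adjusted p = 3.0e-06).

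Many stretches of neighbouring genes held at least 4 genes past 2-fold in 1 direction, and a few are named here. Each stretch was picked for such genes, so its share was high by selection, the stretches of HoxA, Reg and Fundc2 genes included. Over all genes, 12.4% were more than 2-fold higher and 13.3% more than 2-fold lower. On chromosome 8 (22165224 to 22777204 in mm9) 10 of 14 genes of the defensin cluster were more than 2-fold higher. On chromosome 3, 7 of 8 genes in the S100 cluster (90314956 to 90499643 in mm9) and 5 of 10 genes in the stretch with Sprr2a2, Sprr2f and Ivl (91926126 to 92819609 in mm9) were more than 2-fold higher. Ivl, the involucrin of squamous epithelia, had 12.6, 11.0 and 15.4 in EPZ wells and no read in control wells, and S100a9, a calgranulin of neutrophils and inflamed epithelia, had 8.82, 20.1 and 15.5 in EPZ wells and no read in control wells. On chromosome 15 (73924116 to 74879260 in mm9) 8 of 13 genes were more than 2-fold higher, among them Ly6a, Ly6c1, Ly6d, Ly6e and Psca of the Ly6 family. Among the stretches that were lower, the 4 of 9 genes past 2-fold on chromosome 9 (45687633 to 46051542 in mm9) included the apolipoproteins Apoa1, Apoc3 and Apoa4. By biotype, 1182 of 11684 tested protein-coding genes rose (10.1%) and 1291 fell (11.0%), while 101 of 389 tested lincRNAs rose (26.0%) and 45 fell (11.6%).

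Markers of other cell types were mostly low, those of proximal small intestine excepted, and where they differed the values are given without a test. The summed level of fibroblast markers was 19.7 to 30.1 in EPZ wells and 112.7 to 139.7 in control wells, with Vim at 3.09 in EPZ organoids and 74.7 in control organoids and Col1a1 at 3.13 and 29.0. Leukocyte markers summed to 83.6 in EPZ organoids and 50.5 in control organoids, smooth muscle markers to 33.7 and 37.4, squamous markers to 8.82 and 2.04, and hepatocyte markers, mainly Ttr, to 352.0 and 861.2. Genes typical of proximal small intestine summed to 1272 in EPZ organoids and 2060 in control organoids. Of these, Gata4 had means of 709.4 in EPZ organoids and 909.7 in control organoids, Lct 6.82 and 672.7, Pdx1 3.08 and 28.6, and Onecut2 28.2 and 166.5. Ada had 389.6 and 219.1, Slc40a1 79.6 and 58.9, and Cybrd1, a duodenal ferric reductase, 55.4 and 4.62. Their part in the results was not tested.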

How the data were processed

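RNA-seq was done on 3 wells per group of ileal organoids. Per the submitters' processing notes and the methods, the authors used cutadapt 1.10 for trimming and Bowtie2 2.2.8 to take out reads of ribosomal RNA, and aligned to mm9 with STAR 2.5.3a and counted unique reads per Ensembl gene with HTSeq in union mode, whether by strand is not given in the sources used here. The labels name a stranded poly(A) kit and the methods a cDNA amplification kit. The deposited signal is the authors' mean per group of read counts divided by DESeq2 size factors and by the median transcript length. Further deposited columns hold the authors' own fold changes and p-values and were not used, as were the mouse and tumour tables. There were 0 further columns of per-sample values.

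Because low values fall on 1 step per well, whole reads per well were recovered from the 15 printed digits, with transcript lengths of GENCODE M1, wherever exactly 1 solution existed (97.2% of values above 0 in EPZ, 97.6% in 4-OHT and in control organoids). Size factors from the steps and from the recovered reads differed by at most 0.207%. At a deliberately wrong length, a single solution arose by chance in 0.18 to 0.43% of values of 30 to 30000 reads and in 29.6 to 33.7% of larger ones. Wells carry no label and are numbered by size factor. The recovery and the test were checked on simulated data.

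Genes with a mean of at least 10 in either group were compared on the log2(value + 1) scale, which understates the change of low genes. Group means gave the log2 ratio, and limma 3.58.1 (R 4.3.3) with a mean-variance trend was fitted to 6 wells with Benjamini-Hochberg adjustment over 13483 genes. A count test had been planned in case reads per well were found. In a departure from that plan, limma was fitted to the recovered well values, since only group means were deposited. Floors (3 reads over the 3 wells) and 95% intervals cover counting error only. GC content is that of the gene's transcripts.

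The rule for named genes took fixed genes, the 15 largest log2 ratios per direction with a mean of at least 100, up to 5 members of each list in the direction of its median, up to 3 against it and up to 3 nearest 0, and genes in stretches of 1 Mb with at least 4 genes past 2-fold in 1 direction. Well values of other genes were printed where a list needed them. The comparison, genes and lists were chosen with earlier results of these data known. The RefSeq promoter table matched 8961 of the 14001 genes, under 80%, so a comparison of promoter composition between genes that rose and fell is void, and 4 windows are shown with their CG count and the share of promoters in that table with as many, as a description. Numbers were computed in Python 3.11.15 with pandas 2.3.3, numpy 2.4.6 and scipy 1.17.1, and figures drawn with matplotlib 3.10.9. Alternatives were other pseudocounts, level filters, scalings, folds, weights and wells, and removal of GC content. The result of 1 list member is not reported here.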

Additional observations from a re-analysis of the deposited data

How the results depend on the processing

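The numbers of genes more than 2-fold higher and lower in EPZ organoids were 1752 and 1892 with a pseudocount of 0.5 and 1300 and 1398 with 10. Without a level filter they were 2928 and 3254, with a minimum mean of 50 they were 1019 and 1127 (943 higher and 1083 lower with the test), and with a minimum of 100 they were 824 and 928 (760 and 900 with the test), so these counts follow the number of genes compared. Past 4-fold there were 558 and 628 genes (513 and 532 with the test). Leaving out each well in turn gave 1624 to 1707 higher and 1691 to 1950 lower genes on means, 1396 to 1522 and 1443 to 1765 with the test, and median log2 ratios of -0.017 to 0.0048. Equal totals gave a median log2 ratio of -0.20, 1298 higher and 2472 lower (1107 and 2155 with the test), and equal totals without the 50 most abundant genes a median of -0.14, 1430 higher and 2271 lower. Settings added after the data were seen were voom (1474 and 1600), well weights (1619 and 1703), 9 wells (1519 and 1611) and GC content taken off (1482 and 1134, median -6.0e-04). No named gene with a call changed direction under these settings, but the log2 ratio of 41 named genes without a call changed sign with GC content taken off, Taf4a, Cdx2 and Suz12 among them, and that of 41 with equal totals. Of 407 named genes, 7 lost and 18 gained their call with equal totals. Of the 373 resolved by well, 26 lost and 11 gained it with GC content taken off, and 7 lost and 11 gained it without EPZ well 3. Of 37 list medians, 26 moved with equal totals, 17 with equal totals without the 50 most abundant genes, 19 with GC content taken off and 10 without EPZ well 3. No paired analysis was possible because the deposited columns are group means and the recovered wells carry no replicate numbers. Depth, lower in control than in EPZ wells, limits genes of a few reads.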
